A study of Homo sapiens with 16 samples.

Results

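The endoplasmic reticulum (ER) chaperones and the genes of the unfolded protein response were followed through 24 h of actin depolymerisation in human pancreatic progenitors. The set was a named list of 35 genes, chosen by function from ER folding, ER-associated degradation (ERAD), translocation and the IRE1 and ATF6 branches of the response. Of these, 34 were joined to the deposited transcript tables, out of 35810 genes summed in all, and DERL3 was not analysed here. The members comprised 11 chaperones and their partners, 7 oxidoreductases and isomerases, 4 sensors and transcription factors, 8 analysed genes of ERAD and 4 genes of translocation and signal peptide cleavage.

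Proteins that enter the secretory pathway are folded in the ER by chaperones such as BiP and by enzymes that form disulphide bonds, and those that fail to fold are returned to the cytosol and degraded. When unfolded proteins accumulate, the membrane sensors IRE1 and ATF6 are activated: IRE1 removes a short intron from the XBP1 mRNA and so allows a strong transcription factor to be made, whereas ATF6 is cut in the Golgi to release another, and together they raise the chaperone and ERAD genes. In the pancreas this system is best known from acinar and endocrine cells, which secrete large amounts of protein.

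Cells of the human embryonic stem cell line SA121, which carry a green fluorescent reporter of NEUROG3 (genotype NGN3-GFP), were differentiated to pancreatic progenitors (D19 PPs, day 19). They were then exposed to latrunculin B (LatB), a drug that sequesters actin monomers, at 0.5 µM. The 16 poly(A) RNA libraries comprised 3 controls taken at 0 h, 2 controls taken at 24 h, and 3, 3, 2 and 3 libraries with latrunculin B for 3, 6, 12 and 24 h. The 24 h controls received the vehicle DMSO, and whether the 0 h controls did was not certain. All libraries came from 1 reporter line, and nothing in the labels says that replicates were separate differentiations, so the p-values measure the spread between these libraries. The drug at 3, 6 and 12 h was compared with the control at 0 h and the drug at 24 h with the control at 24 h, so for the first 3 times the drug and the hours in culture cannot be told apart.

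Libraries held 23609727 to 33515398 estimated reads. Levels are given as CPM, read counts scaled to one library total with TMM factors, which compares libraries for the same gene. Effects are log2 fold changes with their standard error (SE) from edgeR. A gene was called at a Benjamini-Hochberg adjusted p under 0.05 over the 16705 genes tested. Levels per transcript length are given as TPM. Of the progenitor markers, TPM at 0 h were 156.8 to 168.5 for PDX1, 47.8 to 51.7 for NKX6-1 and 127.2 to 134.5 for SOX9, whereas PTF1A stayed under 1. The pair of 12 h libraries differed more than other replicates (a chi-square per degree of freedom of 63.1, against 5.94 to 22.1 in the other groups), and their summed mesenchymal markers were 214 and 758 TPM. Markers of secretory cell types also differed between groups. The sum over 10 endocrine markers was 70.9 to 84.0 TPM in the 0 h controls, 114 to 133 in the 24 h controls, 146 to 244.5 at 3 h, 194 to 335 at 6 h, 200 to 205 at 12 h and 142 to 472 at 24 h, with 1, 6, 8 and 6 of the 10 called higher at 3, 6, 12 and 24 h and GCG at 0 in 2 of the 0 h controls. The sum over 10 acinar markers was 32.1 to 42.8 TPM in the 0 h controls, 38.2 to 39.04 in the 24 h controls, 26.7 to 38.9 at 3 and 6 h of drug, 44.1 to 118 at 12 h and 59.9 to 76.4 at 24 h, with PNLIP at 0 in all libraries of the 0 h control and of 24 h of drug. The sum over 8 liver markers was 1857 to 2207 TPM in the 0 h controls, 2413 to 3100 at 3 and 6 h of drug and 2914 to 4402 at 12 h, whereas at 24 h it was 2018 to 2683 with the drug and 2625 to 2667 in the controls. Their part in the changes below was not tested, and in these bulk samples a change in the share of a cell type and a change in RNA per cell cannot be told apart.

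The reads of 2 members need most care. CANX encodes calnexin, a membrane lectin chaperone, but its canonical transcript was listed at 0 reads in all 16 libraries and its gene sum ran from 1.19 to 48.02 CPM, highest at 6 h and scattered within groups, so its values rest on minor transcripts. Counts of members below include CANX and name it where it was called. For XBP1, the transcript that lacks the intron removed by IRE1 was also listed at 0 in all 16 libraries. The share of spliced XBP1 was therefore not measured, and the XBP1 values are sums over its other transcripts. Some further members also rested largely on transcripts other than the canonical one. The canonical transcript held a median of 4.21% of gene reads for HERPUD1, 8.45% for PDIA3, 20.8% for SSR1 and 43.6% for SYVN1. For EDEM3 the canonical share ran from 55.1% to 96.8% between libraries. Its bearing on the values of these genes was not tested.

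More members were called higher than lower with latrunculin B at every time. At 3 h, 16 of 34 members were called higher, against 16.8% of all genes tested, and 2 were called lower, against 14.7%. At 6 h the counts were 22 higher, against 22.9%, and 2 lower, against 20.4%. At 12 h, 13 members were higher, against 19.1%, and 6 were lower, against 16.8%. At 24 h, 18 members were higher, against 21.9%, and 4 were lower, against 18.8%. Between the control times no member was called, by edgeR, DESeq2 or limma, against 0.251% of all genes, and 7 had an unadjusted p under 0.05. The median log2 fold change of the members was 0.17 at 3 h, 0.25 at 6 h, 0.14 at 12 h and 0.16 at 24 h, where that of all genes lay between -0.01 and 0.01. Most changes were small: with an absolute log2 fold change of at least 0.5 required as well, 6, 4, 8 and 5 members were called at 3, 6, 12 and 24 h, against 11.5%, 18.4%, 17.2% and 18.8% of all genes. Over both directions together, the members' share at 6 and 24 h was thus below that of all genes. Of these calls, 6, 4, 5 and 3 of 34 members were higher, where 840, 1253, 1373 and 1276 of the 16705 genes tested were. On TPM values tested with limma, 7 members were called at 3 h (6 of them higher) and 11 at 6 h (9 higher), against 21.7% and 31.7% of all genes called in either direction, a total share near that of all genes. Beside the 6 and 9 of 34 members called higher, 1378 and 1928 of 16705 genes were called higher there. Fitted on its own groups alone, the 12 h comparison gave 11 calls, and without the first 24 h control library the 24 h count fell from 22 to 14.

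**Figure D1:**
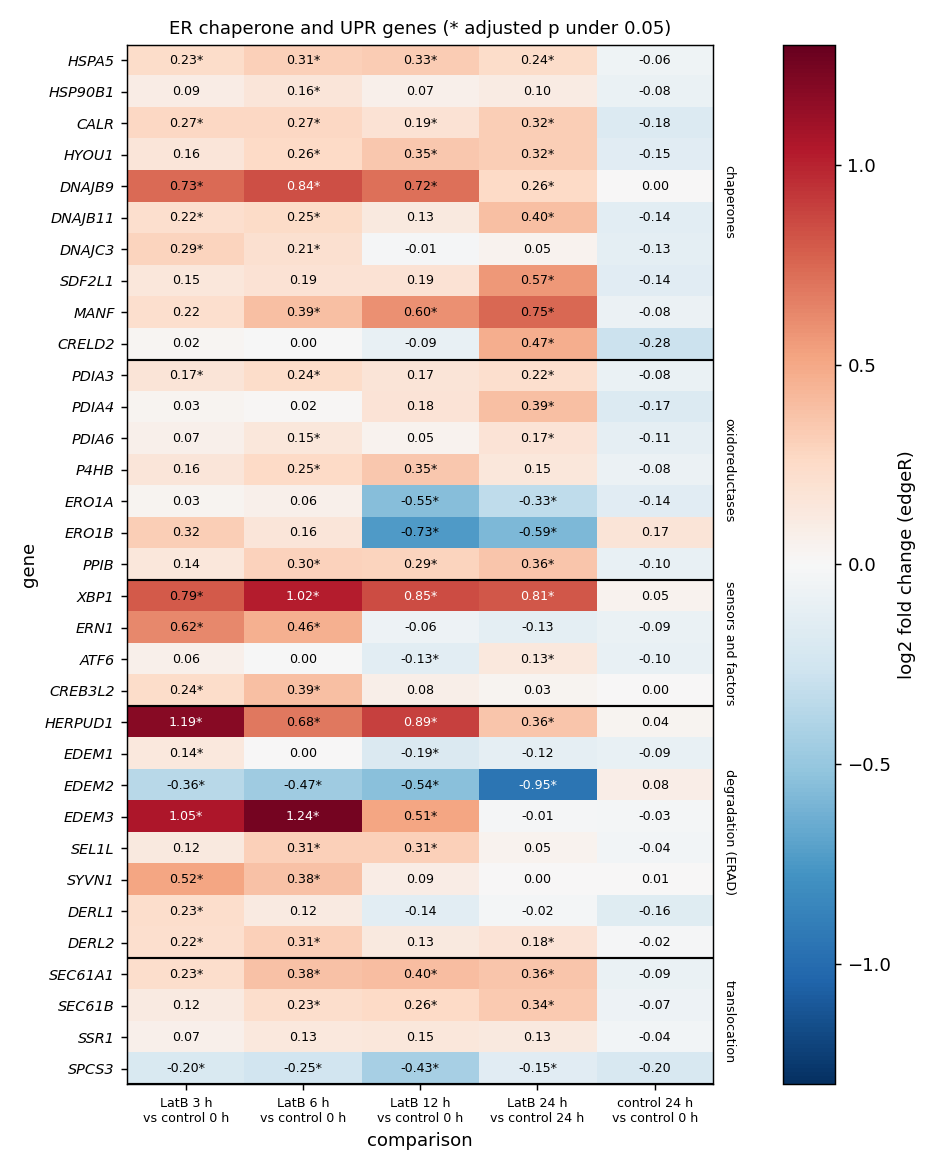
Log2 fold change of each member (rows, grouped by role, without CANX and DERL3) in the 4 comparisons of latrunculin B with a control and in the comparison of the controls (columns). Colour and number give the log2 fold change, and an asterisk marks an adjusted p under 0.05. HERPUD1 at 3 h (1.19) and EDEM3 at 6 h (1.24) were the largest rises, EDEM2 at 24 h (-0.95) the largest fall, and the column of controls holds no asterisk.

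CALR, DNAJB9, HERPUD1, HSPA5, SEC61A1 and XBP1 were called higher in all 4 comparisons with a control, against 4.79% of all genes. EDEM2 and SPCS3 were called lower in all 4, against 3.93%. Of the rises at 3 h, those of DNAJB9, HERPUD1 and XBP1 were met in 10 of 10 alternative analyses. Those of CALR and HSPA5 were met in 8 of 10 and that of SEC61A1 in 7 of 10. At 6 h the calls of SEC61A1 and CALR were met in 8 of 10. In total, 28 members were called higher at least once, against 40.0% of all genes, and 6 lower at least once, against 36.5%. ATF6 and EDEM1 stood in both counts, and SSR1 and CANX in neither. The members together took 0.836% to 0.956% of the reads in the 5 control libraries and 0.958% to 1.13% in the 11 libraries with the drug, with 12 h replicate 2 highest.

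Expression levels per transcript length spanned a wide range in the controls. On the TPM scale at 0 h, the most abundant members were HSP90B1, the ER form of the HSP90 chaperones (1204 ± 19.5, SD, n = 3), PDIA3 (866 ± 62.4), CALR (759 ± 39.8), P4HB (499 ± 23.5), PPIB (494 ± 24.3), PDIA6 (387 ± 23.2) and HSPA5 (344 ± 16.6). The sensors, the factors and some ERAD genes and oxidases were lower: XBP1 reached 184 ± 4.99 TPM, HERPUD1 31.6 ± 3.87, ATF6 21.5 ± 0.847, ERN1 5.62 ± 0.549 and ERO1B 4.38 ± 0.267. In this order 16 neighbouring pairs lay within 1 SD of each other, P4HB and PPIB among them.

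A pair of promoter elements, ERSE and ERSE-II, are the textbook targets of this response. The ER stress response element (ERSE) is CCAAT, 9 unspecified bases and CCACG, and ERSE-II is ATTGG, 1 base and CCACG, each searched on both strands in the window from 250 bases before to 50 bases after each annotated start (RefSeq, GRCh38.p14). Of the 35 members, 32 had a window. ERSE was found in 8 of these (25.0%), against 0.0916% of all 27305 genes with a window, and ERSE-II in 3 (9.38%), against 0.0696%. No member held both. The stretches below show members of each kind that changed in the drug, with the match and 10 bases of context (fewer at a window's end), the element in capitals, written on the strand of the gene. HSPA5, CRELD2, XBP1 and ERO1B carry ERSE and HERPUD1, SDF2L1 and HYOU1 carry ERSE-II.
HSPA5, chr9:125241381-125241419, minus strand: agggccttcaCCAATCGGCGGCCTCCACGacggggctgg
CRELD2, chr22:49918544-49918582, plus strand: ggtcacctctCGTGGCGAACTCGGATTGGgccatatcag
XBP1, chr22:28800593-28800631, minus strand: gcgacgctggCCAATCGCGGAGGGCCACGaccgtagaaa
ERO1B, chr1:236282173-236282208, minus strand: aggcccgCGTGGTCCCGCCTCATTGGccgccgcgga
HERPUD1, chr16:56932015-56932045, plus strand: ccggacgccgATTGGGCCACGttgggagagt
SDF2L1, chr22:21642104-21642134, plus strand: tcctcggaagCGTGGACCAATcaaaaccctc
HYOU1, chr11:119057264-119057400, minus strand: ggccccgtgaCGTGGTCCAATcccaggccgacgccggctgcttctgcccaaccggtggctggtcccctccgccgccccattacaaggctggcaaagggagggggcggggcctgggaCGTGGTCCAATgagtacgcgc

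The element lies from base -66 to -48 before the start in HSPA5, from -80 to -62 in CRELD2, from -52 to -34 in XBP1, from -243 to -225 in ERO1B, from -117 to -107 in HERPUD1 and from -188 to -178 in SDF2L1, and HYOU1 has copies at -185 and -79. CALR, HSP90B1, PDIA6 and CANX also hold ERSE. Of the 11 members with either element, 9 were called higher at least once, ERO1B was called lower, and CANX was not called. Of the 21 with neither, 17 were called higher at least once and 5 lower at least once, where 40.0% of all genes were called higher and 36.5% lower at least once. A match is only a run of letters in this window. Of the members that rose more at 3 h than at 24 h, HERPUD1 held ERSE-II, and EDEM3, SYVN1, ERN1, DNAJB9 and EDEM1 had no match.

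Among the sensors and factors, XBP1, the transcription factor of the IRE1 branch, rose early and stayed high, whereas ERN1, which encodes IRE1 itself, rose only at the first times. ATF6, the other sensor, hardly moved. XBP1 measured 199, 194 and 205 CPM in the 0 h controls and 202 and 211 CPM in the 24 h controls. With the drug it measured 301, 326 and 411 CPM at 3 h, 371, 393 and 453 at 6 h, 425 and 292 at 12 h and 295, 457 and 333 at 24 h. Every drug library lay above every control, but the drug libraries spread far more than the controls. Relative to control, its log2 fold change was 0.79 ± 0.17 at 3 h (adjusted p = 0.00252), 1.02 ± 0.17 at 6 h (0.000271), 0.85 ± 0.18 at 12 h (0.00295) and 0.81 ± 0.19 at 24 h (0.00409), and the effects at 24 h and 3 h did not differ detectably (difference 0.01 ± 0.25, adjusted p = 0.977).

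The intron that IRE1 removes from XBP1 mRNA is shown because the product of this cut is the usual readout of this branch. In the gene model the 26-base intron lies at chr22:28796128-28796153 (GRCh38, minus strand), within the coding sequence. It is given in capitals with 15 bases of exon on each side. The capitals and the exon after them both begin with G, so a gap starting at the next base leaves the same mRNA. The capitals therefore do not mark the exact cuts of IRE1.
XBP1, chr22:28796113-28796168, minus strand: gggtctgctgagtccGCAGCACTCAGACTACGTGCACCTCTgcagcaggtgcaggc
The rise of XBP1 given above is one of its summed transcripts, and how much of the mRNA was cut was not measured.

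ERN1 measured 20.6, 22.5 and 20.1 CPM in the 0 h controls and 19.2 and 20.4 CPM at 24 h without drug. It rose to 33.3, 29.8 and 34.4 CPM at 3 h and 29.7, 27.8 and 29.4 CPM at 6 h, then measured 23.5 and 17.05 CPM at 12 h and 16.4, 17.9 and 20.1 CPM at 24 h. The 3 h and 6 h libraries lay above all controls, whereas those of 12 h lay on either side of the controls and those of 24 h within or below them. This gave a log2 fold change of 0.62 ± 0.11 at 3 h (adjusted p = 0.00053), 0.46 ± 0.11 at 6 h (0.00337), -0.06 ± 0.12 at 12 h (0.723) and -0.13 ± 0.12 at 24 h (0.415). On the TPM scale the ERN1 change at 3 h was 0.33 and missed the threshold (adjusted p = 0.0702).

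ATF6 measured 105, 97.9 and 101 CPM in the 0 h controls, 91.1 and 97.8 in the 24 h controls, 106, 105 and 107 at 3 h, 99.9, 100.3 and 103 at 6 h, 92.8 and 91.9 at 12 h and 101, 107 and 103 at 24 h of drug. The range was narrow, with the 12 h libraries below the 0 h controls and the 24 h drug libraries above the 24 h controls. It was called lower at 12 h (-0.13 ± 0.04, adjusted p = 0.0337) and higher at 24 h (0.13 ± 0.04, 0.0284), but these calls were met in only 3 of 9 and 4 of 10 alternative analyses, and the former was lost on leaving out any of 4 single libraries and the latter any of 3. CREB3L2, an ER-resident factor related to ATF6, rose at 3 h (0.24 ± 0.09) and 6 h (0.39 ± 0.09) and had values of 0.08 and 0.03 at 12 and 24 h, neither called. Its call at 3 h was met in 3 of 10 alternatives and lost on leaving out any of the 6 libraries compared.

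Most ERAD genes were called higher early and few were at 24 h. At 3 h, 6 of 8 were called higher and 1 lower, at 6 h 5 and 1, at 12 h 3 and 2, and at 24 h 2 and 1. Over all genes, 16.8%, 22.9%, 19.1% and 21.9% were called higher at these times and 14.7%, 20.4%, 16.8% and 18.8% lower. The ERAD counts at 24 h were thus near the shares of all genes. Their median log2 fold change fell from 0.23 at 3 h and 0.31 at 6 h to 0.11 at 12 h and -0.01 at 24 h. HERPUD1 and EDEM3 both rose by over 1 on the log2 scale within 3 h, and EDEM2 went the other way.

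HERPUD1, an ER membrane protein that recruits the degradation machinery, measured 23.95, 24.7 and 25.6 CPM in the 0 h controls and 25.3 and 25.6 in the 24 h controls. With the drug it measured 54.1, 59.8 and 55.4 CPM at 3 h, 41.6, 39.4 and 38.2 at 6 h, 38.7 and 52.8 at 12 h and 34.7, 32.3 and 30.96 at 24 h. Every drug library exceeded every control, with the 3 h libraries highest and those of 24 h lowest among them. The fitted change (log2) was 1.19 ± 0.09 at 3 h (adjusted p = 9.01e-07), 0.68 ± 0.09 at 6 h (5.54e-05), 0.89 ± 0.10 at 12 h (2.19e-05) and 0.36 ± 0.10 at 24 h (0.0126). The call at 24 h was lost without either 24 h control (adjusted p = 0.0814 and 0.0553).

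EDEM3, one of the mannosidase-like proteins that hand misfolded glycoproteins to ERAD, measured 138, 128 and 146 CPM in the 0 h controls and 127 and 142 in the 24 h controls. It measured 291, 277 and 288 CPM at 3 h, 307, 331 and 338 at 6 h, 221 and 170.5 at 12 h and 132, 129.7 and 138 at 24 h. The rise was over by 24 h, where drug and control libraries overlapped. On the log2 scale it changed by 1.05 ± 0.08 at 3 h (adjusted p = 1.05e-06), 1.24 ± 0.08 at 6 h (2.01e-07), 0.51 ± 0.09 at 12 h (0.000818) and -0.01 ± 0.09 at 24 h (0.922).

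EDEM2, which trims the first mannose, fell at every time. Its levels were 61.1, 62.9 and 56.9 CPM in the 0 h controls, 60.9 and 67.01 in the 24 h controls, 47.3, 53.6 and 39.7 at 3 h, 45.8, 42.9 and 42.4 at 6 h, 33.1 and 49.6 at 12 h and 36.2, 30.8 and 32.5 at 24 h of drug. All drug libraries lay below all controls, and those of 24 h were lowest as a group. The corresponding log2 effect was -0.36 ± 0.13 at 3 h (adjusted p = 0.0458), -0.47 ± 0.13 at 6 h (0.0103), -0.54 ± 0.15 at 12 h (0.0115) and -0.95 ± 0.14 at 24 h (0.000196). The call at 3 h was lost without any 1 of the 3 controls or without 3 h replicate 1 or 3 (adjusted p from 0.0636 to 0.159), and that at 12 h without 12 h replicate 1 (0.117).

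EDEM1, the third of that family, moved little. It measured 69.7, 67.7 and 68.7 CPM in the 0 h controls, 63.2 and 65.6 in the 24 h controls, 77.5, 76.5 and 72.5 at 3 h, 69.2, 69.7 and 67.7 at 6 h, 58.9 and 61.3 at 12 h and 63.5, 56.7 and 58.2 at 24 h. It was called higher at 3 h (0.14 ± 0.05, adjusted p = 0.0355) and lower at 12 h (-0.19 ± 0.05, 0.0109). The 3 h call was lost on leaving out any of 5 single libraries and its sign turned on the TPM scale (-0.02), and the 12 h call was lost without 12 h replicate 1 (adjusted p = 0.0611).

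SYVN1 and SEL1L form the ubiquitin ligase complex through which luminal substrates leave the ER. Both were called higher at 6 h and neither at 24 h. SYVN1 was also called at 3 h and SEL1L at 12 h. Whether their courses differed was not tested. SYVN1, the ligase, measured 59.3, 66.5 and 59.002 CPM in the 0 h controls, 62.6 and 61.4 in the 24 h controls, 90.1, 81.7 and 92.7 at 3 h, 78.1, 79.95 and 82.1 at 6 h, 69.2 and 62.4 at 12 h and 60.6, 62.002 and 63.8 at 24 h. It was above all controls at 3 h (0.52 ± 0.06, adjusted p = 2.71e-05) and 6 h (0.38 ± 0.06, 0.000225) and overlapped them later. Its exons overlap those of FAU and MRPL49. The library kit does not keep the strand, so reads of these genes cannot be fully told apart. The same limit holds for members whose exons overlap those of other protein-coding genes. They are HSP90B1, CANX, DNAJB11, CRELD2, PDIA3, PDIA6, PPIB, DERL1, DERL2, SEC61A1 and SSR1.

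SEL1L, the adaptor, measured 257, 234 and 256 CPM in the 0 h controls, 235 and 249 in the 24 h controls, 277, 278 and 259.5 at 3 h, 302, 314 and 312 at 6 h, 283 and 335 at 12 h and 260.2, 244 and 249 at 24 h. It was highest at 6 and 12 h, when it was called higher (0.31 ± 0.06, adjusted p = 0.0011, and 0.31 ± 0.07, 0.00325), and had a change of 0.05 at 24 h (0.592). Without 12 h replicate 2 the 12 h value fell to 0.18 (adjusted p = 0.0501). The derlins, which help to move substrates out of the membrane, rose slightly: DERL1 at 3 h (0.23 ± 0.05) and DERL2 at 3 h (0.22 ± 0.06), 6 h (0.31 ± 0.06) and 24 h (0.18 ± 0.06), the last lost on leaving out any of 4 single libraries.

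**Figure D2:**
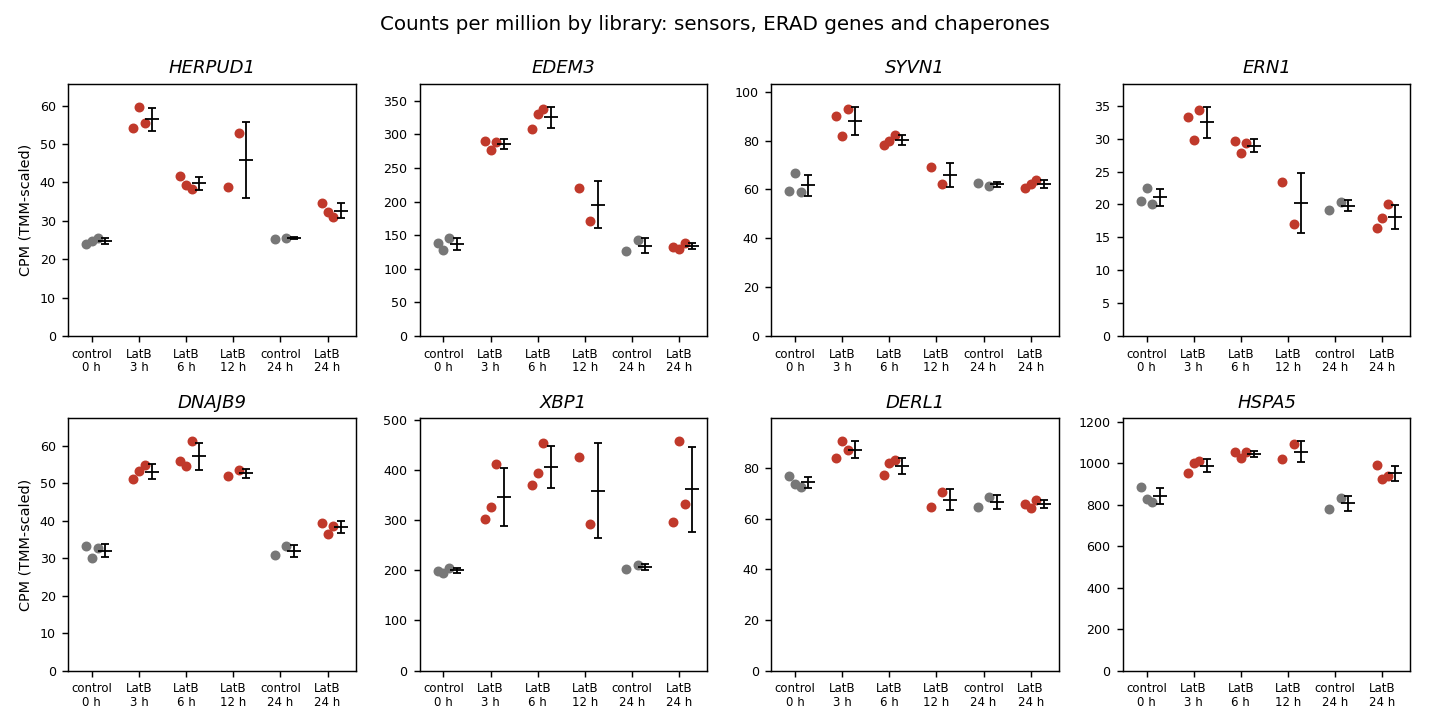
CPM (TMM-scaled, y axis from 0) of 8 members in each library, by group (x axis). Grey points are control libraries, red points latrunculin B libraries, and the black mark beside each group is the mean with the SD (n = 2 or 3). HERPUD1, EDEM3, SYVN1 and ERN1 were high at 3 and 6 h and near the controls again by 24 h (HERPUD1 still above them), whereas XBP1 was at 292 CPM or more in every drug library.

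No chaperone was called lower with the drug at any time, where 14.7% to 20.4% of all genes were. At 3, 6, 12 and 24 h, 5, 8, 5 and 8 of 11 were called higher, against 16.8%, 22.9%, 19.1% and 21.9% of all genes. Their medians were 0.22, 0.26, 0.19 and 0.32 on the log2 scale. The group divided by time: DNAJB9 rose at once and had fallen back by 24 h, whereas MANF, SDF2L1 and CRELD2 rose late, and the abundant chaperones changed by small amounts throughout.

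HSPA5, which encodes BiP, the main HSP70 of the ER and the brake on the sensors, measured 884, 826 and 811 CPM in the 0 h controls and 781 and 832 in the 24 h controls. It measured 954, 1002 and 1010.3 CPM at 3 h, 1052, 1027 and 1054 at 6 h, 1021 and 1091 at 12 h and 993, 923 and 940.1 at 24 h of drug. Every drug library lay above every control. The log2 fold changes were 0.23 ± 0.05, 0.31 ± 0.05, 0.33 ± 0.05 and 0.24 ± 0.06 at 3, 6, 12 and 24 h (adjusted p = 0.00256, 0.000201, 0.000465 and 0.0038), so the effect was small but steady. Without the first 24 h control the 24 h call was lost (adjusted p = 0.0627).

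HSP90B1 measured 1597, 1512 and 1519 CPM in the 0 h controls, 1410.2 and 1505 in the 24 h controls, 1618, 1650.4 and 1664 at 3 h, 1716, 1704 and 1755 at 6 h, 1587 and 1644 at 12 h and 1585, 1599 and 1508 at 24 h. The 6 h libraries were the highest, and the 24 h drug libraries lay just above the 24 h controls. It was called at 6 h alone (0.16 ± 0.04, adjusted p = 0.00798), and that call was lost without control 0 h replicate 2 or 6 h replicate 3 (0.0604 and 0.0619).

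DNAJB9, a BiP co-chaperone induced by spliced XBP1, measured 33.3, 29.99 and 32.7 CPM in the 0 h controls, 30.8 and 33.2 in the 24 h controls, 51.2, 53.3 and 55.03 at 3 h, 55.96, 54.6 and 61.3 at 6 h, 51.9 and 53.5 at 12 h and 39.6, 36.6 and 38.8 at 24 h. All drug libraries lay above all controls, with those of 24 h the closest. Relative to control, its log2 fold change was 0.73 ± 0.06 at 3 h (adjusted p = 1.24e-06), 0.84 ± 0.06 at 6 h (2.79e-07), 0.72 ± 0.06 at 12 h (3.64e-06) and 0.26 ± 0.07 at 24 h (0.00664). The last of these was lost without the first 24 h control (0.0914).

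MANF, a secreted ER-stress protein that binds BiP, climbed with time. It measured 43.8, 38.4 and 33.5 CPM in the 0 h controls, 34.98 and 38.2 in the 24 h controls, 45.5, 43.3 and 45.9 at 3 h, 48.3, 49.2 and 54.4 at 6 h, 58.8 and 57.9 at 12 h and 65.7, 58.2 and 60.3 at 24 h. This gave a log2 fold change of 0.22 ± 0.08 at 3 h (adjusted p = 0.0631), 0.39 ± 0.08 at 6 h (0.00202), 0.60 ± 0.09 at 12 h (0.000281) and 0.75 ± 0.09 at 24 h (5.65e-05). The 3 h libraries overlapped the 0 h controls, and all later drug libraries lay above every control.

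SDF2L1, a partner of the BiP co-chaperones, measured 21.8, 19.6 and 19.5 CPM in the 0 h controls, 17.7 and 19.1 in the 24 h controls, 22.3, 23.2 and 22.1 at 3 h, 21.8, 21.9 and 25.5 at 6 h, 22.8 and 23.5 at 12 h and 25.998, 29.3 and 26.4 at 24 h. The 24 h drug libraries were the highest of all 16. It was called at 24 h (0.57 ± 0.08, adjusted p = 0.000159) and not at 3, 6 or 12 h, where its changes were 0.15, 0.19 and 0.19. Set against the 24 h controls instead, it was called at those times too, with changes of 0.29, 0.33 and 0.33.

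CRELD2, an ER-stress-induced protein with isomerase activity, measured 32.4, 32.04 and 30.1 CPM in the 0 h controls and 26.4 and 25.4 in the 24 h controls. It measured 31.2, 32.1 and 32.7 CPM at 3 h, 32.6, 30.9 and 30.9 at 6 h, 26.2 and 32.7 at 12 h and 34.97, 37.8 and 34.8 at 24 h of drug. Here the 24 h controls were the low group, below all 0 h controls and all drug libraries except that 12 h replicate 1 lay between them. The log2 fold change at 24 h was 0.47 ± 0.08 (adjusted p = 0.00044), and it was 0.18 against the 0 h controls (0.0472). At 6 h the change was 0.00 against the 0 h controls and 0.28 against the 24 h controls (adjusted p = 0.0117), so its call there depended on which controls were used. CRELD2 shares exon sequence positions with ALG12 on the other strand.

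The other chaperones changed by less. CALR, calreticulin, was called at all 4 times (0.27, 0.27, 0.19 and 0.32), with 3 of 9 alternatives keeping the 12 h call and a value of 0.10 (adjusted p = 0.346) without 12 h replicate 2. DNAJB11, which delivers unfolded chains to BiP, was called at 3, 6 and 24 h (0.22, 0.25 and 0.40), and HYOU1, the nucleotide exchange factor of BiP, at 6, 12 and 24 h (0.26, 0.35 and 0.32). DNAJC3 was called at 3 and 6 h only (0.29 and 0.21), with -0.01 and 0.05 later, the 3 h call being lost without control 0 h replicate 2 or 3 h replicate 2 and the 6 h call, met in 3 of 10 alternatives, on leaving out any of 5 single libraries. HYOU1 was not called without 12 h replicate 2 at 12 h (0.0566) or without the first control at 24 h (0.0917).

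Among the members that form disulphides, the oxidases fell at 12 and 24 h and the disulphide isomerases rose slightly. PDIA5, an isomerase that is not a member, fell at 24 h (-0.85 ± 0.11), as given below. ERO1A and ERO1B reoxidise the disulphide isomerases, and both were called lower at 12 and 24 h and at neither 3 nor 6 h. ERO1A measured 129, 116 and 127 CPM in the 0 h controls, 111 and 114 in the 24 h controls, 120.1, 124 and 138 at 3 h, 121, 135 and 133 at 6 h, 94.6 and 75.02 at 12 h and 88.9, 91.01 and 87.9 at 24 h. The late drug libraries all lay below the controls. The fitted change (log2) was -0.55 ± 0.09 at 12 h (adjusted p = 0.000385) and -0.33 ± 0.09 at 24 h (0.0079), the latter lost without the second 24 h control (0.0544), and 0.03 and 0.06 at 3 and 6 h.

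ERO1B, the form enriched in endocrine pancreas, was scarce. It measured 10.6, 10.1 and 11.5 CPM in the 0 h controls, 11.9 and 12.2 in the 24 h controls, 12.4, 13.4 and 14.4 at 3 h, 12.5, 12.5 and 10.9 at 6 h, 6.21 and 6.66 at 12 h and 6.35, 8.44 and 9.21 at 24 h. The libraries of 12 and 24 h of drug were the 5 lowest of all 16. On the log2 scale it changed by 0.32 ± 0.12 at 3 h (adjusted p = 0.0548), 0.16 ± 0.12 at 6 h (0.31), -0.73 ± 0.14 at 12 h (0.0012) and -0.59 ± 0.13 at 24 h (0.00311). The summed endocrine markers were higher over the same times, as given above.

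Of the disulphide isomerases, PDIA3 was called higher at 3, 6 and 24 h (0.17, 0.24 and 0.22), PDIA6 at 6 and 24 h (0.15 and 0.17) and P4HB at 6 and 12 h (0.25 and 0.35). PDIA4 resembled the late chaperones: it measured 402, 376 and 378 CPM at 0 h, 327 and 356 in the 24 h controls and 456, 461 and 423 with 24 h of drug, and was called at 24 h alone (0.39 ± 0.08, adjusted p = 0.00165). Here too the 24 h controls were the low group, and against the 0 h controls the change at 24 h was 0.21 (adjusted p = 0.0251). The PDIA3 call at 3 h and the PDIA6 and P4HB calls at 6 h were each lost on leaving out any of 5 single libraries, that of P4HB at 12 h without 12 h replicate 2 (0.13, adjusted p = 0.233), and those of PDIA3 and PDIA6 at 24 h without the first control (0.192 and 0.264). PPIB, cyclophilin B, a proline isomerase, was called at 6, 12 and 24 h (0.30, 0.29 and 0.36).

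**Figure D3:**
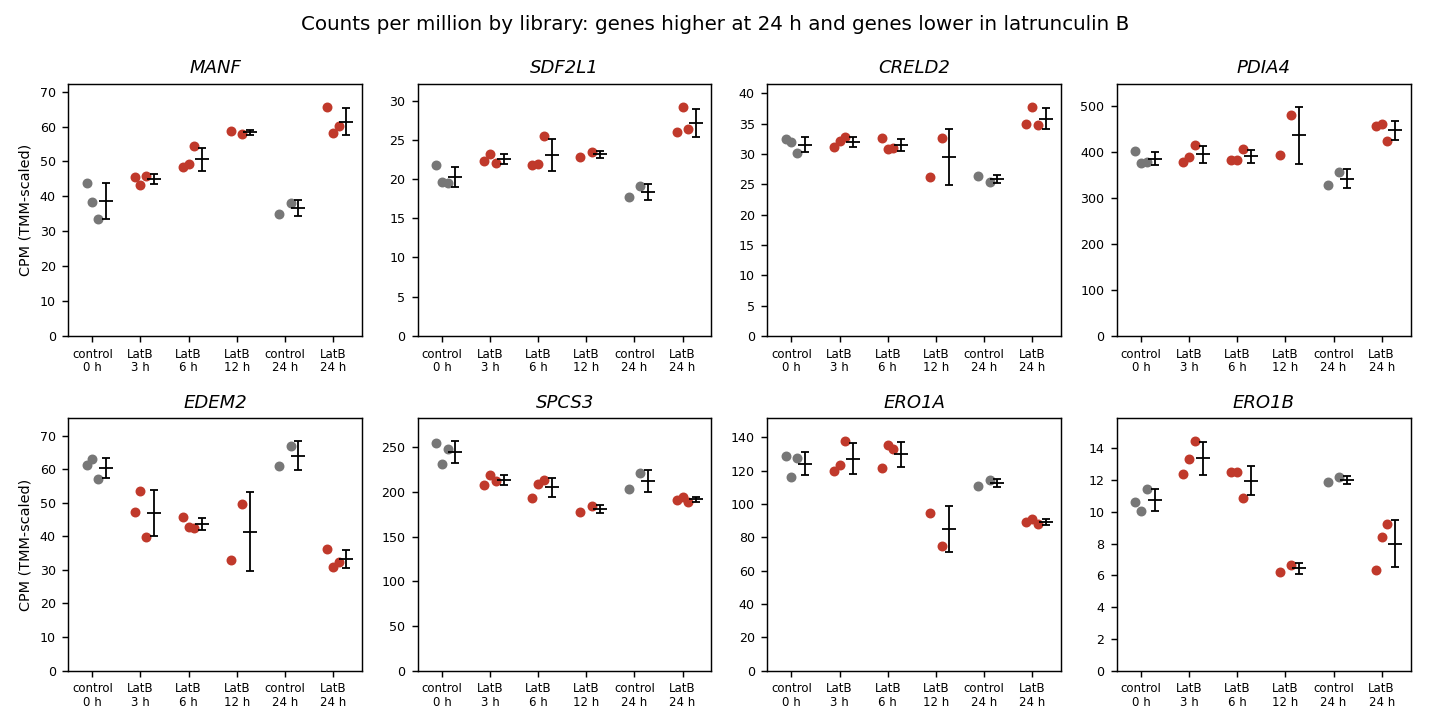
CPM (TMM-scaled, y axis from 0) of 8 members in each library, by group (x axis), with controls in grey, latrunculin B in red, and the mean with the SD in black (n = 2 or 3). In the upper row the 24 h drug libraries exceed the 24 h controls for MANF, SDF2L1, CRELD2 and PDIA4. In the lower row they lie below the 24 h controls for EDEM2, SPCS3, ERO1A and ERO1B.

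Of the translocation genes, SEC61A1, the channel itself, was called higher at all 4 times (0.23, 0.38, 0.40 and 0.36) and SEC61B, a small subunit of it, at 6, 12 and 24 h (0.23, 0.26 and 0.34). SSR1, a subunit of the translocon-associated complex, was not called (0.07 to 0.15). SPCS3, a subunit of signal peptidase, fell: it measured 255, 231 and 248 CPM in the 0 h controls, 204 and 221 in the 24 h controls, 208, 219 and 212 at 3 h, 193, 209 and 213 at 6 h, 178 and 184 at 12 h and 191, 195 and 189 at 24 h. Its log2 fold change was -0.20 ± 0.05 at 3 h, -0.25 ± 0.05 at 6 h, -0.43 ± 0.06 at 12 h and -0.15 ± 0.06 at 24 h (adjusted p = 0.00797, 0.00119, 7.49e-05 and 0.0476). Against the 24 h controls the 3 h and 6 h values were 0.00 and -0.05 and were not called, and on the TPM scale the 24 h value was 0.02, whereas the 12 h call was kept in 9 of 9 alternatives and with either control.

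The course of the effect was tested directly. From 3 h to 6 h of drug, 3 members were called higher, against 11.9% of all genes, and 1 lower, against 10.3%. The fall was that of HERPUD1 (-0.50 ± 0.09, adjusted p = 0.00151). The rises were PPIB (0.16), SEL1L (0.19) and CANX, whose values are unsound as said above. Without library scaling 1 member was higher and 1 lower. The rises of PPIB and SEL1L were lost on leaving out any of the 6 libraries compared, and that of CANX on leaving out any of 3.

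From 6 h to 24 h of drug, 4 members were called higher, against 19.0% of all genes, and 15 lower, against 18.9%. Of the ERAD genes, 7 of 8 were called lower. EDEM3 fell by 1.29 on the log2 scale (SE 0.08), ERN1 by 0.68, DNAJB9 and ERO1B by 0.58 each, ERO1A by 0.54, EDEM2 by 0.40, SYVN1 by 0.37 and HERPUD1 by 0.28. The rises were MANF (0.28), SDF2L1 (0.24), CRELD2 (0.19) and PDIA4 (0.19). All 4 were lost without 6 h replicate 1 or without 6 h replicate 2. That of CRELD2 was lost on leaving out any of the 6 libraries compared. That of PDIA4 was also lost without 24 h replicate 1 or 2, MANF without 24 h replicate 1, and SDF2L1 without 24 h replicate 2. The falls of HSPA5, HSP90B1, HERPUD1 and EDEM2 were likewise lost without some single libraries, and that of HSPA5 became 0.00 without library scaling. Without library scaling, which moved the median of all genes by 0.14, the split was 7 higher and 7 lower.

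The effect at 24 h was also tested against that at 3 h, each with its own control. It was larger for 5 members, against 14.6% of all genes, and smaller or more negative for 10, against 13.4%, and without library scaling these counts were 8 and 6. The late members were MANF (difference 0.53 ± 0.13, adjusted p = 0.00731), CRELD2 (0.45 ± 0.11, 0.00665), SDF2L1 (0.41 ± 0.11, 0.0133), PDIA4 (0.35 ± 0.11, 0.0231) and SEC61B (0.22 ± 0.07, 0.0274). The early ones were EDEM3 (-1.07 ± 0.12, 6.12e-05), HERPUD1 (-0.83 ± 0.14, 0.000673), ERN1 (-0.75 ± 0.16, 0.00341), SYVN1 (-0.51 ± 0.09, 0.00104), DNAJB9 (-0.47 ± 0.09, 0.00154), DERL1 (-0.25 ± 0.07) and EDEM1 (-0.25 ± 0.07). ERO1B (-0.91 ± 0.18), ERO1A (-0.37 ± 0.12) and EDEM2 (-0.58 ± 0.19) completed the count, with changes that were more negative at 24 h. Those of EDEM2 were lost without any of 9 single libraries, of ERO1A and SEC61B any of 6, and of PDIA4, DERL1, SDF2L1 and EDEM1 any of 2, 2, 1 and 1.

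**Figure D4:**
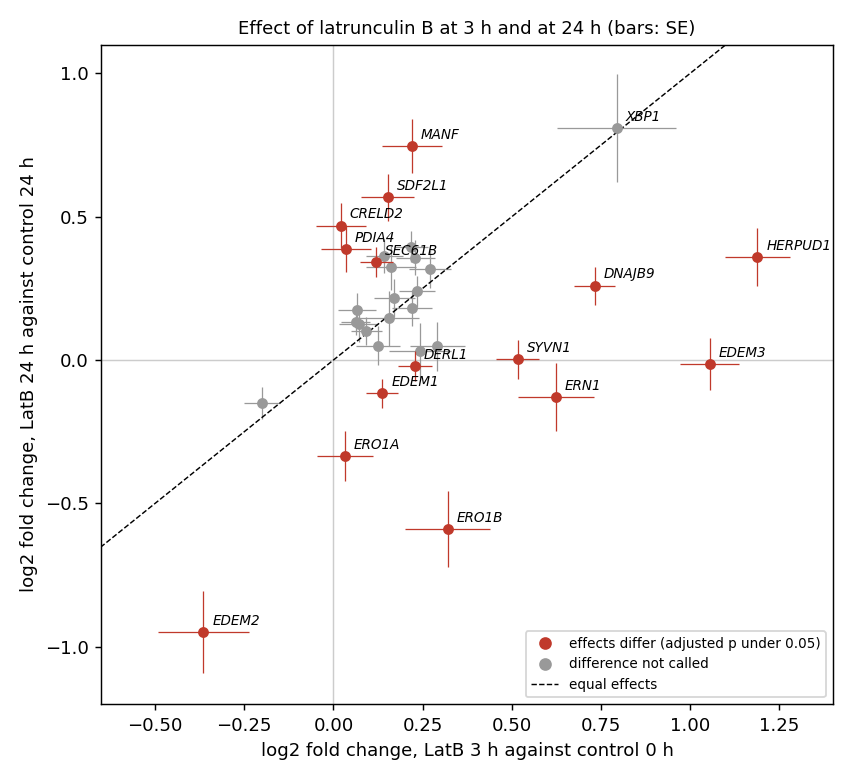
Log2 fold change of each member with latrunculin B at 3 h against control 0 h (x axis) and at 24 h against control 24 h (y axis), with SE bars and without CANX. Red points are members whose effects differed at an adjusted p under 0.05, grey points the others, and the dashed line marks equal effects. HERPUD1, EDEM3, SYVN1 and ERN1 lie below the line on the right, MANF, SDF2L1, CRELD2 and PDIA4 above it, and XBP1 on it.

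Other genes of the pathway, taken from lists chosen by function, are given by their counts, to be read against the shares of all genes called at each time given above. Of 35 other ERAD genes, 17 were called higher and 4 lower at 3 h, 18 and 3 at 6 h, 10 and 4 at 12 h, and 14 and 5 at 24 h, with medians of 0.19, 0.17, 0.05 and 0.11. The largest rises were SELENOK, an ER selenoprotein of the ERAD complex (1.23 ± 0.07 at 3 h), and HSPA13 (0.68 ± 0.06 at 6 h). SELENOK measured 21.8, 20.7 and 23.6 CPM at 0 h and 48.1, 53.1 and 53.9 CPM after 3 h, and 24.2, 24.9 and 27.4 CPM after 24 h. The largest falls were the ubiquitin ligase TMEM129 (-0.67 ± 0.04) and the rhomboid protease RHBDD1 (-0.64 ± 0.08), both at 6 h.

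Of 30 other genes of translocation and signal peptide cleavage, none was called lower at any of the 4 times, and 9, 19, 15 and 20 were called higher at 3, 6, 12 and 24 h, with medians of 0.12, 0.15, 0.15 and 0.23. The largest were SRPRB, the beta subunit of the signal recognition particle receptor (0.62 ± 0.07 at 24 h, its canonical transcript absent from the tables used here), and SEC11C, a catalytic subunit of the signal peptidase (0.57 ± 0.06 at 6 h). SEC11C rose while SPCS3 of the same enzyme fell.

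Of 42 other folding genes tested, 8 were called higher and 2 lower at 3 h, 15 and 2 at 6 h, 12 and 6 at 12 h, and 16 and 10 at 24 h, with medians of 0.06, 0.10, 0.12 and 0.11. CLGN, a calnexin relative (0.85 ± 0.10 at 24 h), and CNPY4 (0.83 ± 0.07 at 12 h) rose most, and PDIA5 (-0.85 ± 0.11) and the cyclophilin PPIC (-0.73 ± 0.12), both at 24 h, fell most. PDIA5 measured 116 and 125 CPM in the 24 h controls and 75.8, 63.8 and 61.1 CPM with 24 h of drug.

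Of 20 other sensors and genes of the PERK branch, 7 were called higher and 4 lower at 3 h, 8 and 4 at 6 h, 9 and 5 at 12 h, and 3 and 1 at 24 h, with medians of 0.05, 0.10, 0.08 and 0.09. CREB3L1, another ER-tethered factor (1.34 ± 0.11 at 6 h), and ATF4, the factor made when PERK slows translation (1.08 ± 0.05 at 3 h, its canonical transcript absent here), rose most. TXNIP, a thioredoxin-binding protein, had -4.08 ± 0.39 at 3 h, from 100.5, 95.9 and 93.6 to 4.12, 4.91 and 8.14 CPM, and TRIB3, an ATF4 target, had -0.66 ± 0.14 at 6 h. ATF4 measured 177, 192 and 178 CPM at 0 h, 389.8, 393 and 375 at 3 h and 222, 194 and 201 at 24 h of drug, and the 3 h libraries were the highest of these. TRIB3 measured 10.6, 9.48 and 11.4 CPM at 0 h and 6.97, 6.51 and 6.43 at 6 h, lower in each drug library.

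Of 37 genes of COPII export and retrieval tested, 17 were called higher and none lower at 3 h, 14 and 1 at 6 h, 12 and 2 at 12 h, and 9 and 2 at 24 h, with medians of 0.15, 0.11, 0.12 and 0.10. The coat subunit SEC24A (0.47 ± 0.07 at 3 h) and the cargo receptor TMED7 (0.45 ± 0.06 at 6 h) rose most, and SEC31B (-0.998 ± 0.192 at 24 h) and the lectin LMAN1 (-0.33 ± 0.06 at 12 h) fell most. Of 20 cytosolic heat shock genes, 8 were called higher and 3 lower at 3 h, 10 and 2 at 6 h, 13 and 1 at 12 h, and 14 and 1 at 24 h, with medians of 0.14, 0.16, 0.27 and 0.40. HSPA8 (0.75 ± 0.08) and HSPA1A (1.02 ± 0.11), both at 12 h, rose most, and HSPB1 had -0.41 ± 0.09 at 12 h. HSPA1A shares reads with its near-identical copy HSPA1B, so its value is uncertain, and it was lower at 6 h (-0.35 ± 0.10). HSPA8 measured 804, 742 and 776 CPM at 0 h, 777 and 834 in the 24 h controls and 1241, 1128 and 1305 with 24 h of drug.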

How the data were processed

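Poly(A) RNA of 16 libraries was sequenced. For each library the authors deposited the salmon table of estimated counts (expected counts) and of TPM values per transcript. Per the submitters' processing notes the tools were Salmon 1.3.0 and DESeq2 with hg38, whereas the study's methods describe STAR alignment, so the route from reads to these tables is known only in part. A deposited table of the authors' own comparisons (fold changes, errors and p-values at 4 times) and its 16 per-library columns were not used.

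Of 177456 transcripts, 165533 were matched without version to GENCODE release 44 and summed to 35810 genes (unmatched reads, 2.92% to 3.17% per library). Counts were rounded and tested in 1 edgeR 4.0.16 quasi-likelihood fit over the 6 groups (R 4.3.3, TMM, filterByExpr, 16705 genes, two-sided, Benjamini-Hochberg over all of them). DESeq2 1.42.0, other scalings and filters, a replicate block, limma 3.58.1 on log2(TPM + 1) and log2(TPM + 0.1), the other control, and leaving out each library were alternatives. The code was tested on simulated data. No pairing of libraries by replicate number was seen, and the main fit held no replicate block. Members and lists were chosen with earlier results of these data known. Per-library values are given for 14 members set by name and for every other member called with an absolute log2 fold change of at least 0.5, and from other lists the largest called changes in each direction. PDIA4, SPCS3, SELENOK, TXNIP, TRIB3, ATF4, PDIA5 and HSPA8 levels were chosen for print after their values were seen. Promoter windows came from RefSeq (GRCh38.p14), and gene models from GENCODE. DERL3 and SURF4 were not analysed here.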

Additional observations from a re-analysis of the deposited data

Results flagged for a closer look

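The effect of latrunculin B at 24 h differed from that at 3 h for 15 members, by the edgeR test of the difference itself, each effect taken against its own control. On the log2 scale the effect at 24 h minus that at 3 h was 0.527 for MANF, 0.448 for CRELD2, 0.415 for SDF2L1, 0.353 for PDIA4 and 0.221 for SEC61B, which rose more at 24 h. It was -1.07 for EDEM3, -0.828 for HERPUD1, -0.752 for ERN1, -0.514 for SYVN1, -0.472 for DNAJB9, -0.253 for EDEM1 and -0.249 for DERL1, which were higher at 3 h. It was -0.909 for ERO1B, -0.584 for EDEM2 and -0.367 for ERO1A, which were lower at 24 h. The 2 effects rest on different controls, and the control at 24 h has 2 libraries. No group held enough libraries for a test of single outlying samples.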

How the results depend on the processing

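Over all member values and alternatives, 360 were no longer called, 83 became called, and 9 turned direction where either analysis called the value. The other 4070 kept their side of the threshold. Values called in neither analysis are among these, whether or not their sign turned. Counts of called members moved by more than 1.5 times as follows. On TPM with limma, with either pseudocount, they were 7 at 3 h, 11 at 6 h, 1 from 3 to 6 h, 10 from 6 to 24 h (5 higher, 5 lower) and 8 for the difference (5 and 3). With an absolute log2 fold change of at least 0.5 as well, they were 6, 4, 8 and 5 at 3, 6, 12 and 24 h, 2 from 3 to 6 h, 5 from 6 to 24 h and 7 for the difference. With only the compared groups the 12 h count was 11 and the count from 3 to 6 h was 7, and with the 12 h libraries left out, an alternative chosen after seeing the data, the latter was 7 and the control comparison 1. From 3 to 6 h the count was also 2 without scaling, without the filter and with the replicate block. Leaving out 1 library gave 13 to 17 at 3 h, 20 to 26 at 6 h, 17 to 21 at 12 h, 14 to 20 at 24 h, 0 between controls, 1 to 3 from 3 to 6 h, 12 to 16 from 6 to 24 h and 10 to 15 for the difference.

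Values that turned direction are listed only where either analysis called them. With limma they were EDEM1 at 3 h (-0.0212 and -0.0219) and from 6 to 24 h (0.0255 and 0.0260), and SPCS3 at 24 h (0.0178 and 0.0179). With the other control they were SPCS3 at 3 h (0.0036) and CRELD2 at 6 h (0.281). Without scaling it was HSPA5 from 6 to 24 h (0.00157). The cause was not tested. Same-numbered libraries deviated with a correlation of -0.241 to 0.116, and 4 of 16 libraries lay nearest their own number, so no pairing by number was seen. With 2 or 3 libraries per group this check is weak, and whether same-numbered libraries shared a differentiation is not known. With the replicate block the counts were 16, 22, 17 and 19 at 3, 6, 12 and 24 h, 0 between controls, 2 from 3 to 6 h, 16 from 6 to 24 h and 13 for the difference. No alternative could be run for the share of spliced XBP1, because its transcript was at 0 reads. Groups of 2 or 3 libraries limit the precision of every value.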
